A study of Mus musculus with 12 samples.

Results

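The 10 genes described here are 5 poly(ADP-ribose) polymerase (PARP) family members, Parp9, Parp10, Parp11, Parp12 and Parp14, the ubiquitin ligase gene Dtx3l, and 4 Schlafen genes, Slfn2, Slfn5, Slfn8 and Slfn9. They were chosen by name, as interferon-induced members of these families, from a table of 55401 genes, with earlier results of these data known. Counts of members beside the share of all genes are therefore descriptions and not independent tests. The cells were bone marrow mesenchymal stem cells (MSCs) of C57BL/6 mice, bought from a commercial supplier and profiled by poly(A) RNA sequencing in 4 groups of 3 libraries. Control MSCs were untreated. TGF-β1 MSCs received 5 ng/mL TGF-β1, a cytokine used to drive myofibroblastic differentiation, for 24 h. The remaining groups received the same TGF-β1 together with culture supernatant of monocytic (M-MDSC) or granulocytic (G-MDSC) myeloid-derived suppressor cells. These suppressor cells were grown from bone marrow cells with GM-CSF and IL-6 and sorted as CD11b+Ly6G-Ly6C-high or CD11b+Ly6G+Ly6C-low cells. There was no group with supernatant but without TGF-β1, and none with unconditioned medium in place of supernatant. Nothing in the labels says that the replicates were separate cultures, so the p-values measure the spread between these libraries, which may be technical.

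PARP enzymes transfer ADP-ribose from NAD+ to proteins. The enzymes chosen here attach a lone unit rather than a chain, or, as for PARP9, act mainly through a partner, and many of them restrict virus replication or modify signaling after interferon. PARP9 and DTX3L form a complex that joins ubiquitin to histones and viral proteins. Schlafen proteins bind tRNA or other nucleic acids and are linked to the control of translation, virus replication and lymphocyte quiescence. Type I interferon switches such genes on through transcription factors, IRF9 among them, that bind the interferon-stimulated response element in promoters. Interferon-gamma acts at a different sequence, the gamma-activated site.

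Several members lie close together in the genome (GRCm38). Parp14 (chr16:35832874-35871544), Dtx3l (chr16:35926511-35939151) and Parp9 (chr16:35938470-35972605) occupied 139732 bases of chromosome 16. Parp9 and Dtx3l lie head to head on opposite strands, and their spans overlap by 682 bases. The 4 Schlafen members occupied 119330 bases of chromosome 11, in the order Slfn5 (chr11:82951349-82961906), Slfn9 (chr11:82978390-82991830), Slfn8 (chr11:83002158-83020810) and Slfn2 (chr11:83065112-83070678). Parp12 (chr6:39086410-39118349) and Parp11 (chr6:127446840-127494240) lie far apart on chromosome 6, and Parp10 (chr15:76231174-76243441) lies on chromosome 15.

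Promoter sequences from RefSeq (GRCm38.p6) were found for 7 of the 10 members. Parp9, Parp10 and Parp14 had no entry. In the 250 bases before the start, the core letters of the interferon-stimulated response element, GAAANNGAA on either strand, occurred in Slfn5, Slfn8, Slfn9 and Parp11. That is 4 of 7 genes, against 8.18% of all genes in that table, and 5 of their 9 promoters, against 7.13% of all 32851 promoters. Parp11 and Slfn8 have 2 promoters each: those of Slfn8 overlap and hold the same site, which is counted for each of them, and the second of Parp11 (chr6:127453377-127453626) held neither motif. The gamma-activated site letters, TTCNNNGAA, occurred in 1 promoter, of Parp11, among the 9, against 7.02% of all promoters, and there they overlapped the response element match. The stretches below show the match in Slfn8, Slfn9 and Parp11, and the Slfn2 promoter, in which neither run of letters was found. Capitals mark the matched letters, which read on the strand opposite to the gene for the response element. The Slfn8 stretch is chr11:83020811-83021060 (- strand), Slfn9 is chr11:82991831-82992080 (- strand), Parp11 is chr6:127446590-127446839 (+ strand) and Slfn2 is chr11:83064862-83065111 (+ strand).
Slfn8: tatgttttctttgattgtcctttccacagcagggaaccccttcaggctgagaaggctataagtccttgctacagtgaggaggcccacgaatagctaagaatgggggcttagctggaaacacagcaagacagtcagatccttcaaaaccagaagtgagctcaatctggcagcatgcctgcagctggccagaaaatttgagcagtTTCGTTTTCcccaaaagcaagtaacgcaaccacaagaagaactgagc
Slfn9: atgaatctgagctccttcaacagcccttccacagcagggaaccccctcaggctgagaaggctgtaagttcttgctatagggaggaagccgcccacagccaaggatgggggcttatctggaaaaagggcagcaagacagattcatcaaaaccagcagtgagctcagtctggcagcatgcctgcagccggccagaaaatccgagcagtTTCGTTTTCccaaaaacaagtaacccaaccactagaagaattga
Parp11: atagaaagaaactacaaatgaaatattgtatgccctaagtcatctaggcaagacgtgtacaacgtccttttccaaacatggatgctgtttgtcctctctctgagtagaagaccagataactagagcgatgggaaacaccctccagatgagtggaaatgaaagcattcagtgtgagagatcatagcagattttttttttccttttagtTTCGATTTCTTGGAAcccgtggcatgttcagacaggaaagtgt
Slfn2: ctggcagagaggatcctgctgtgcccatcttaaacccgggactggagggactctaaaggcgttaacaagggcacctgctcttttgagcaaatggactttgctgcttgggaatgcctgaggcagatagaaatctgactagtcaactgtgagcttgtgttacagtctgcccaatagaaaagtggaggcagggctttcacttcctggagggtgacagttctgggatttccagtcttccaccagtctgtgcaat

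The Slfn8 and Slfn9 stretches were 80% identical over a 255-position alignment, and both held the match TTCGTTTTC. It lay 47 to 39 bases before the start of Slfn8 and 44 to 36 bases before the start of Slfn9. In Parp11 the response element match lay 43 to 35 bases before the start and the gamma-activated site match 37 to 29 bases before it. These matches are descriptions of letters, and nothing about binding was measured.

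Of the 10 members, 9 passed the filter on low values, which kept genes with at least 1 FPKM (fragments mapped to a gene, scaled for exon length and sequencing depth) in at least 3 of 12 libraries. Slfn5 did not pass. It had 0, 0 and 5 counts in the control libraries, 0 in each TGF-β1 library, 7, 19 and 0 in the M-MDSC group and 12, 0 and 25 in the G-MDSC group, so its groups overlapped and no fold is given. Fitted without the filter it passed in none of the 6 comparisons. A count of 0 allows up to 3 counts in a library of that depth, by counting error alone and if each count is a separate fragment. That may not hold here, since 44.3% of nonzero counts up to 12 were 4, 8 or 12, so this bound may be too low. Parp14 reached 1 FPKM in the 6 supernatant libraries and in no other, so it passed the filter through the groups in which it was high. Slfn2 reached it in 9 libraries, Dtx3l in 10, Parp10 in 11 and the other 5 in all 12. Total counts per library were 73977669 to 84565450.

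The libraries carried the RNA of mesenchymal cells: 7 of 8 MSC markers, among them Cd44, Itgb1 and Vim, averaged at least 1 FPKM in every group, and Eng did not. With TGF-β1 alone 4 of the 7 MSC markers tested rose and 2 fell, where 16.1% of all genes rose and 17.9% fell. In the M-MDSC group 1 rose and 1 fell, where 2.83% of all genes rose and 1.95% fell. In the G-MDSC group 1 rose and 1 fell, where 3.10% rose and 2.46% fell. Ly6a, which encodes the mouse MSC surface marker Sca-1, went against most of the list, with averages of 245 FPKM in control, 16.2 with TGF-β1, 92.5 in the M-MDSC group and 66.9 in the G-MDSC group. Pdgfrb, a receptor of mesenchymal cells, averaged 32.3, 44.7, 38.4 and 34.2 FPKM in the same order. With M-MDSC supernatant the log2 fold change was 2.49 for Ly6a (adjusted p = 2.38e-07) and -0.24 for Pdgfrb (adjusted p = 0.0104). Of 15 myeloid markers, Mpo and Elane had 0 counts in every library, and the summed level was 28.9 to 30.9 FPKM in control, 15.6 to 17.1 with TGF-β1, 22.8 to 28.2 in the M-MDSC group and 28.5 to 31.1 in the G-MDSC group. Most of that sum was Cd14, at 23 FPKM in control, 13.8 FPKM with TGF-β1 and 20.4 and 22.6 FPKM in the M-MDSC and G-MDSC groups. Of the 15, 6 were tested, and 2 rose with each supernatant, Cd14 and Lyz2. Of all genes 2.83% rose with M-MDSC and 3.10% with G-MDSC supernatant. Lyz2, a lysozyme gene of macrophages and neutrophils, averaged 0.115 FPKM in control, 0.0573 with TGF-β1, 1.54 in the M-MDSC group and 1.87 in the G-MDSC group. It reached 1 FPKM in supernatant libraries alone, so it passed the filter through the groups in which it was high. Ly6g, a granulocyte marker, averaged 1.83 FPKM in control and 0.0681, 0.0619 and 0.125 FPKM with TGF-β1 and in the M-MDSC and G-MDSC groups, and Ly6c2, of monocytes, 1.71, 0.045, 0.148 and 0.211. Both fell with TGF-β1 alone and did not pass with either supernatant. They reached 1 FPKM in the 3 control libraries alone, so they passed the filter through control and could only fall. Their levels in the other groups were too low for the supernatant tests to decide. Among the myeloid markers not tested, S100a9 had 0 counts in the control and TGF-β1 libraries and averaged 0.576 FPKM in the M-MDSC group. In the G-MDSC group it averaged 1.13 FPKM with an SD of 1.96. S100a8 averaged 0.149 and 0.208 FPKM in the M-MDSC and G-MDSC groups, and Itgam 0.031 and 0.0501. Camp went otherwise, with 0 counts in the M-MDSC group and 0.103 FPKM in control. The 6 lymphoid markers summed to at most 0.115 FPKM and the 3 endothelial and progenitor markers to at most 0.383 FPKM in any library. Transcripts of other organs were found in the supernatant libraries. The kidney genes Kap, Umod and Slc34a1 and the 5 liver markers, Alb among them, had 0 counts in all 6 libraries without supernatant. They and the kidney gene Miox reached 1 FPKM in supernatant libraries alone, so they could only rise against TGF-β1, and no count of calls in that comparison is given for them. Kap averaged 30.5 FPKM in the M-MDSC group and 45.2 in the G-MDSC group. With supernatant all 7 kidney markers had counts in every library. Aqp1, also expressed outside the kidney, went the other way, with means of 29.9 FPKM in control, 4.22 with TGF-β1, 3.41 in the M-MDSC group and 3.26 in the G-MDSC group. It made up most of the summed kidney level without supernatant, which was 28.9 to 30.4 FPKM in control and 4.21 to 4.38 FPKM with TGF-β1. The M-MDSC libraries differed among themselves: the liver markers summed to 0.0766, 0.176 and 56.4 FPKM in replicates 1, 2 and 3, and the kidney markers to 19, 14.9 and 82.3 FPKM. With G-MDSC supernatant the liver markers summed to 61.5 to 66.8 FPKM and the kidney markers to 46.3 to 60.3 FPKM.

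The summed level of the members was 95.7, 96.1 and 94.0 FPKM in M-MDSC replicates 1, 2 and 3. It was 74.7 to 77.8 FPKM with G-MDSC supernatant, 34.2 to 35.7 in control and 22.7 to 25.3 with TGF-β1 alone. Every call for a member that rests on M-MDSC replicate 3 was kept without that library. Whether RNA of other cells contributed to the level of any member was not tested, and in bulk RNA a change in the share of cells cannot be told apart from a change in RNA per cell.

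**Figure D1:**
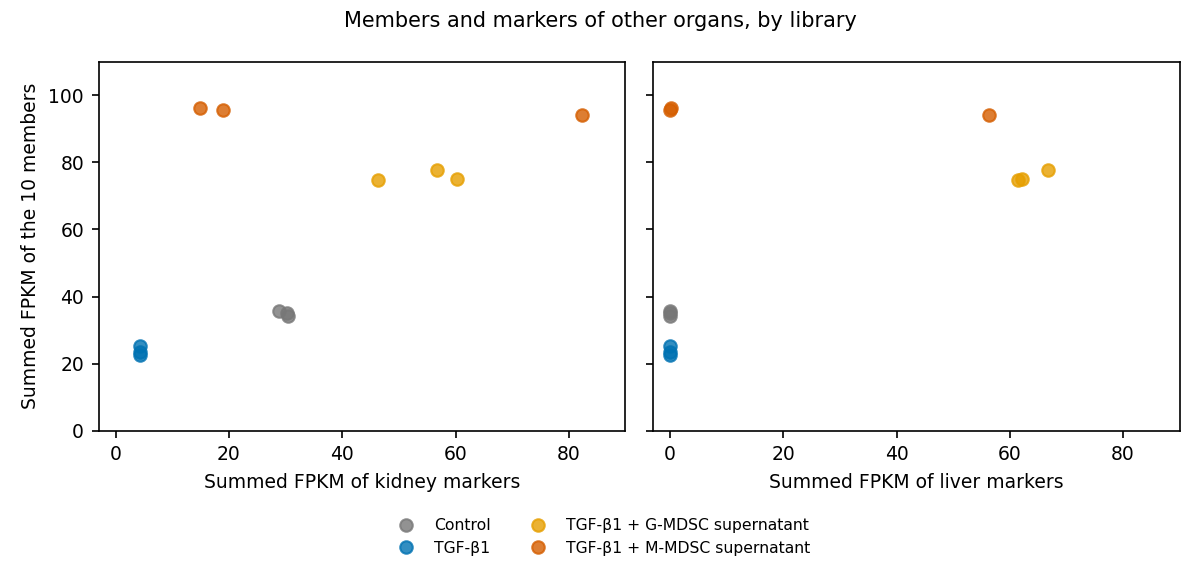
Summed FPKM of the 10 members (vertical axis) against the summed FPKM of 7 kidney markers (left) and 5 liver markers (right), with 1 point a library coloured by group. The 3 M-MDSC supernatant libraries sit at 94.0 to 96.1 on the vertical axis, and their liver sums run from 0.0766 to 56.4.

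TGF-β1 alone was accompanied by lower transcript levels of most members. By the edgeR quasi-likelihood test over 12016 genes, 7 of 9 members fell at an adjusted p under 0.05, where 17.9% of all genes tested fell. The median log2 fold change of the 9 members was -0.63, and that of all genes was 0.000478. With the call rule of the study, a fold change above 2 or below 0.5 and an unadjusted p under 0.05, 3 members fell (Parp10, Parp14 and Slfn2), against 4.14% of all genes. The FPKM values of the groups did not overlap, with TGF-β1 lower, for 7 of 9 members, against 30.0% of all genes.

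Parp14, a macrodomain protein known as a cofactor of STAT6, was at 0.833, 0.617 and 0.824 FPKM in the control libraries and at 0.211, 0.215 and 0.206 FPKM with TGF-β1. All 3 TGF-β1 libraries were below the lowest control library, and the log2 fold change was -1.78 (SE 0.12, adjusted p = 1.26e-06). Slfn2, a short Schlafen protein known for keeping T cells quiescent, was at 1.46, 1.31 and 1.46 FPKM in control and 0.680, 0.689 and 0.417 FPKM with TGF-β1. Its log2 fold change was -1.18 (SE 0.17, adjusted p = 3.29e-04). Parp10, a mono-ADP-ribosyltransferase with ubiquitin-binding motifs, was at 2.29, 2.01 and 2.49 FPKM in control and 0.837, 1.03 and 1.23 FPKM with TGF-β1. The 3 TGF-β1 values were again all below the control values, with a log2 fold change of -1.07 (SE 0.13, adjusted p = 8.71e-05). Parp12, a zinc finger PARP with antiviral activity, showed the least spread. It was at 7.05, 6.79 and 6.98 FPKM in control and 3.55, 3.55 and 3.69 FPKM with TGF-β1, a log2 fold change of -0.89 (SE 0.044, adjusted p = 9.84e-08).

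Parp9 and Dtx3l, the partners of the ubiquitin ligase complex, fell less. Parp9 was at 2.66, 2.90 and 2.71 FPKM in control and 1.5, 2.02 and 1.63 FPKM with TGF-β1 (log2 fold change -0.63, SE 0.10, adjusted p = 8.29e-04). Dtx3l was at 1.29, 1.3 and 1.55 FPKM in control and 0.969, 1.16 and 0.873 FPKM with TGF-β1 (log2 fold change -0.41, SE 0.11, adjusted p = 0.0132). The groups did not overlap for either partner, but the Dtx3l call was lost without control replicate 3, with a log2 fold change of -0.32 and an adjusted p of 0.0533. It was also lost in a fit of the 6 libraries compared alone, with the log2 fold change at -0.41 and an adjusted p of 0.0733. Slfn8, a long Schlafen protein with a helicase-like region, fell from 4.89, 4.09 and 4.01 FPKM to 2.89, 2.81 and 2.47 FPKM (log2 fold change -0.61, SE 0.091, adjusted p = 3.66e-04).

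Slfn9 and Parp11 did not pass the edgeR test. Slfn9, a close relative of Slfn8, was at 12.8, 14.8 and 12 FPKM in control and 12.4, 9.18 and 10.8 FPKM with TGF-β1, so the groups overlapped. Its log2 fold change was -0.24 (95% interval -0.46 to -0.01, adjusted p = 0.104). By limma it passed, at -0.28 on log2(FPKM + 1) (adjusted p = 0.0466) and -0.30 on log2(FPKM + 0.1) (adjusted p = 0.0465), and its size shifted when single libraries were left out. Without TGF-β1 replicate 1 it passed, at -0.35 and an adjusted p of 0.0196, whereas without TGF-β1 replicate 2 it was -0.13 (adjusted p = 0.315) and without control replicate 2 -0.15 (adjusted p = 0.299). Parp11, a mono-ADP-ribosyltransferase of the nuclear envelope, was at 1.85, 1.88 and 2.10 FPKM in control and 2.23, 2.02 and 2.06 FPKM with TGF-β1. Its log2 fold change was 0.17 (95% interval 0.02 to 0.33, adjusted p = 0.0887), and without 1 library at a time it ran from 0.12 to 0.23, passing without control replicate 3 (0.23, adjusted p = 0.0367).

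**Figure D2:**
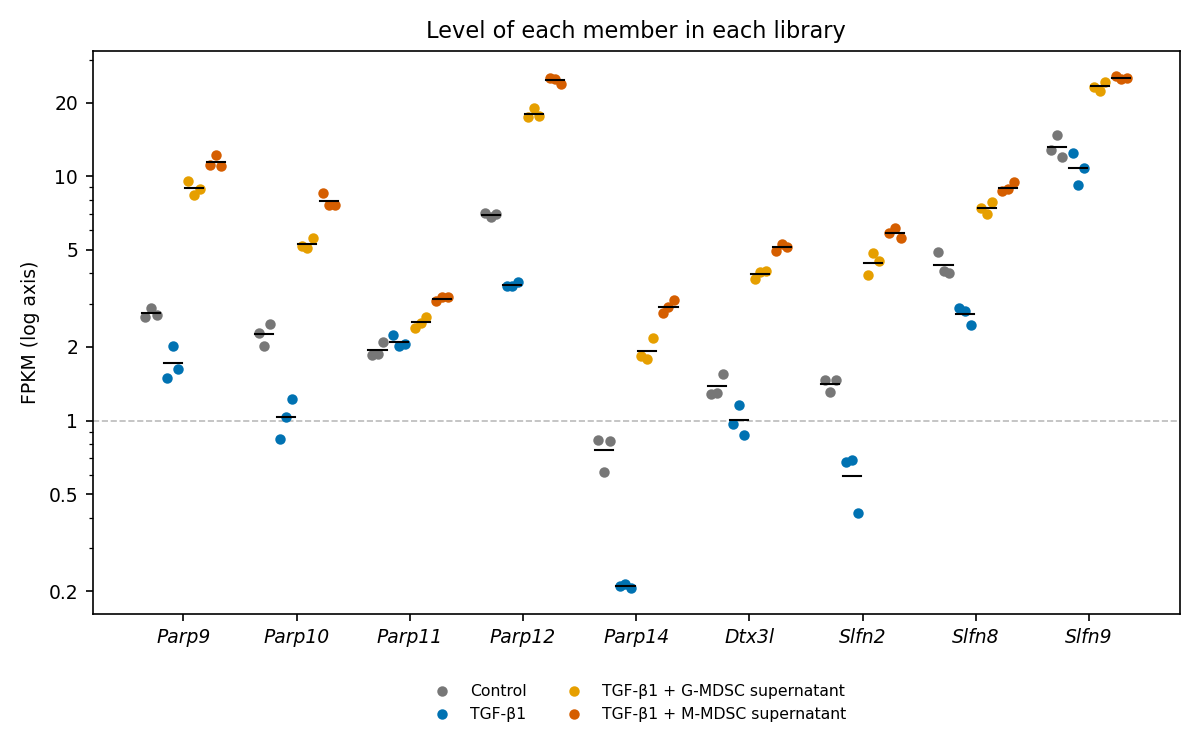
FPKM on a log axis for the 9 members that passed the filter, with 1 point a library, coloured by group, and a black bar at each group mean (n = 3). For every member shown, the 6 supernatant libraries lie above the 3 TGF-β1 libraries. The dashed line marks 1 FPKM, and Slfn5, with at most 25 counts, is left out.

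When M-MDSC supernatant was added to TGF-β1, all 9 members tested rose. The adjusted p was under 0.05 for 9 of 9, where 2.83% of all genes rose, and the rule of the study called 8 of 9, against 1.94% of all genes. The FPKM values of the supernatant and TGF-β1 groups did not overlap for 9 of 9 members, against 13.4% of all genes. The median log2 fold change of the 9 was 2.71, while the median of all genes was -0.0133. Without M-MDSC replicate 3, 9 of 9 members still rose. Each of these counts includes Parp14, which passed the filter through the supernatant libraries and so could only rise. In edgeR without the filter its log2 fold change was 3.78 (adjusted p = 1.33e-08), and 9 of 10 members passed.

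The size of the rise differed widely among the members. In the edgeR fit Parp14 rose most, to 2.76, 2.91 and 3.11 FPKM, which was 13.6-fold the level with TGF-β1 alone (log2 fold change 3.77, SE 0.13, adjusted p = 1.92e-08). This is the member that passed the filter through the supernatant libraries alone, so its fold rests on a low TGF-β1 level. The size and the order depended on the scale. By limma on log2(FPKM + 1) it was 1.70, less than for Parp12 (2.48), Parp9 (2.20), Parp10 (2.14) and Slfn2 (2.11), and on log2(FPKM + 0.1) it was 3.28. Slfn2 reached 5.87, 6.12 and 5.60 FPKM, a 9.62-fold rise (log2 fold change 3.27, SE 0.18, adjusted p = 6.90e-07). Parp10 reached 8.52, 7.65 and 7.65 FPKM, a 7.54-fold rise (log2 fold change 2.91, SE 0.14, adjusted p = 1.70e-07). Parp14, Slfn2 and Parp10 also had the largest falls with TGF-β1 alone, and the TGF-β1 libraries enter both comparisons.

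Parp12 rose to 25.1, 25.0 and 23.8 FPKM, a 6.74-fold change with little spread (log2 fold change 2.75, SE 0.047, adjusted p = 1.26e-10). That brought its level per length to that of Parp1, the founding enzyme of the family, which was at 24.1 FPKM with TGF-β1 and 24.0 FPKM with M-MDSC supernatant. Parp1 was named here after its values were seen. The ratio of Parp12 to Parp1 FPKM had a median of 0.149 in the TGF-β1 libraries and 1.03 in the M-MDSC libraries.

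The head-to-head partners rose together. Parp9 reached 11.1, 12.2 and 11 FPKM (log2 fold change 2.71, SE 0.11, adjusted p = 4.81e-08), and Dtx3l reached 4.94, 5.29 and 5.12 FPKM (log2 fold change 2.33, SE 0.11, adjusted p = 1.93e-07). The ratio of Parp9 to Dtx3l FPKM was 1.54 to 1.87 in the TGF-β1 libraries and 2.14 to 2.30 with M-MDSC supernatant, so the ratio did not overlap between these groups. In control it was 1.75 to 2.23. In the GENCODE annotation of this build 458 exonic bases are shared by the 2 genes, 9.40% of the exonic bases of Parp9 and 8.00% of those of Dtx3l. The libraries mark the strand, but whether the counting used it is not given in the sources used here, so reads from that stretch may have been counted for either gene. On the same strand, 4.8% of the exonic bases of Parp10 are shared with Plec and 1.18% of those of Parp14 with Gm49730.

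Among the Schlafen genes the highest expressed member changed least. Slfn8 rose to 8.66, 8.82 and 9.42 FPKM (log2 fold change 1.70, SE 0.092, adjusted p = 6.21e-07) and Slfn9 to 25.6, 24.9 and 25.1 FPKM (log2 fold change 1.20, SE 0.10, adjusted p = 3.71e-05). The ratio of Slfn9 to Slfn8 FPKM was 3.27 to 4.36 with TGF-β1 alone and 2.66 to 2.96 with M-MDSC supernatant. In control it was 2.62 to 3.62, which overlapped both, and with G-MDSC supernatant it was 3.11 to 3.19. These genes are similar in sequence. Of all 50-base windows of the longest Slfn8 transcript, 15.4% occurred in a transcript of another gene, namely Slfn9 or the pseudogene Slfn10-ps, and for Slfn9 the share was 11.4%. Of 150-base windows, the length of a read, 0% of Slfn8 and 1.55% of Slfn9 were shared, the latter with Slfn10-ps, so their levels may be slightly mixed by the counting.

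Parp11 changed least of the 9. Its 3.08, 3.19 and 3.19 FPKM with M-MDSC supernatant lay above all TGF-β1 and control libraries, but the change was 1.48-fold (log2 fold change 0.56, 95% interval 0.40 to 0.72, adjusted p = 8.14e-04). Parp11 was the member that the fold threshold of the study left out.

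With G-MDSC supernatant 8 of the 9 members tested rose. Of all genes tested 3.10% rose at an adjusted p under 0.05. For 9 of 9 members the lowest G-MDSC library lay above the highest TGF-β1 library, against 13.2% of all genes. The median log2 fold change was 2.30, while that of all genes was -0.0144. These values include Parp14, which passed the filter through the supernatant libraries and so could only rise. In edgeR without the filter its log2 fold change was 3.17 (adjusted p = 6.92e-08), and 8 of 10 members passed. This comparison uses the same TGF-β1 libraries as the comparison for M-MDSC supernatant, so the 2 are not independent.

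Parp14 was at 1.84, 1.78 and 2.17 FPKM with G-MDSC supernatant, 8.93-fold the TGF-β1 level (log2 fold change 3.16, SE 0.13, adjusted p = 8.87e-08). Slfn2 was at 3.95, 4.86 and 4.48 FPKM, 7.25-fold the TGF-β1 level (log2 fold change 2.86, SE 0.18, adjusted p = 2.35e-06). The other members rose less. Parp9 reached 9.53, 8.35 and 8.90 FPKM with a log2 fold change of 2.35, Parp10 reached 5.20, 5.06 and 5.56 FPKM with 2.32, and Parp12 reached 17.4, 19 and 17.7 FPKM with 2.30. Dtx3l reached 3.81, 4.04 and 4.10 FPKM (log2 fold change 1.97), Slfn8 7.43, 7.03 and 7.81 FPKM (1.42) and Slfn9 23.1, 22.4 and 24.3 FPKM (1.08). The largest adjusted p of these 6 genes was 8.49e-05, for Slfn9.

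Parp11 was the exception. It was at 2.39, 2.51 and 2.66 FPKM with G-MDSC supernatant, above all TGF-β1 libraries, but its log2 fold change of 0.23 (95% interval 0.08 to 0.39) had an adjusted p of 0.0949 and an unadjusted p of 0.00755 by the edgeR fit over all 12 libraries. DESeq2 gave 0.24 with an adjusted p of 0.0295, so the call for Parp11 depended on the tool.

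**Figure D3:**
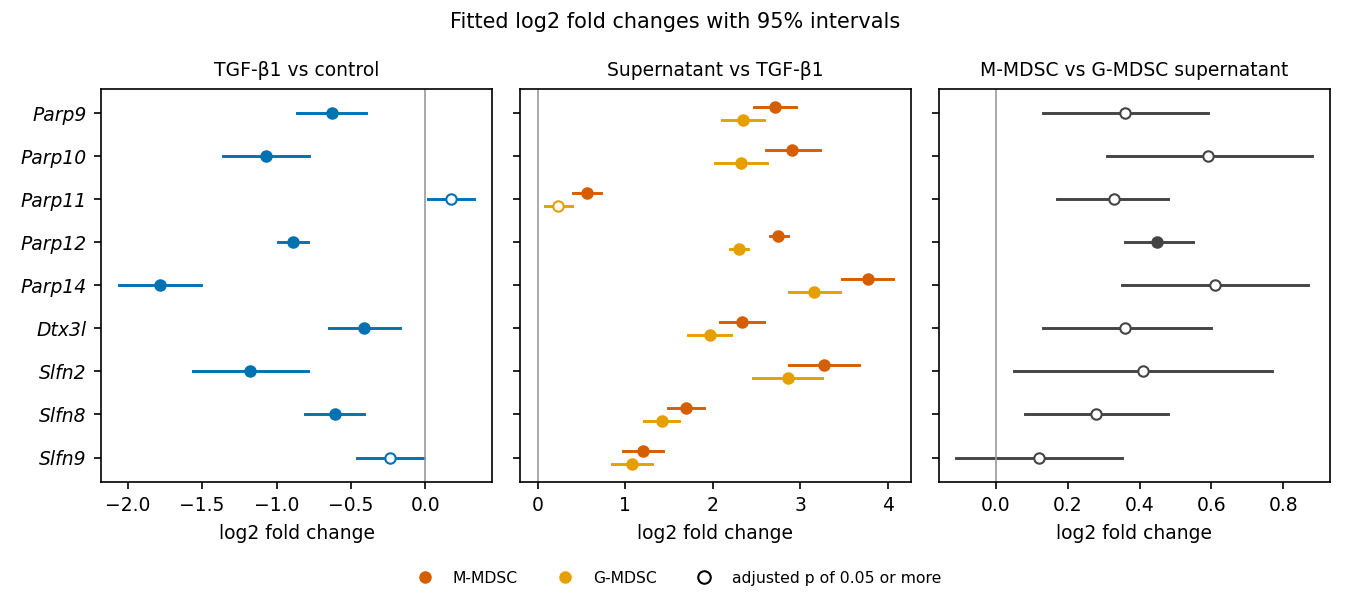
Fitted log2 fold changes of the 9 members (points) with 95% intervals (lines) for TGF-β1 against control, each supernatant with TGF-β1 against TGF-β1 alone, and M-MDSC against G-MDSC supernatant. Filled points have an adjusted p under 0.05. Parp14 has the largest fitted change in each panel, and in the right panel Parp12 is the filled point.

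The supernatants were then compared with each other. All 9 members tested were higher in M-MDSC than in G-MDSC supernatant libraries, and the FPKM values of the groups did not overlap for 9 of 9, against 5.97% of all genes. The differences were small. At an unadjusted p under 0.05, 8 of 9 members were higher, against 3.56% of all genes, and at an adjusted p under 0.05 the count was 1 of 9, against 0.0999% of all genes. The median log2 difference of the members was 0.36, and that of all genes was 7.01e-05.

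Parp12 was the member that passed. Its 25.1, 25.0 and 23.8 FPKM with M-MDSC supernatant stood above 17.4, 19 and 17.7 FPKM with G-MDSC supernatant, a log2 difference of 0.45 (95% interval 0.36 to 0.55, adjusted p = 0.00257). Without M-MDSC replicate 3 the difference was 0.48 with an adjusted p of 0.00369. Parp14 and Parp10 differed more in size but with more spread: the log2 difference was 0.61 for Parp14 (95% interval 0.35 to 0.87, adjusted p = 0.126) and 0.59 for Parp10 (95% interval 0.31 to 0.88, adjusted p = 0.18). For Slfn2 it was 0.41 (95% interval 0.05 to 0.77), for Parp9 and Dtx3l 0.36 each, for Parp11 0.33 and for Slfn8 0.28, with adjusted p-values between 0.18 and 0.737. Slfn9 had the smallest difference, 0.12, and its 95% interval of -0.11 to 0.35 included 0 (adjusted p = 0.965).

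The number of members that passed this comparison depended on the tool. DESeq2 called 4 (Parp12, Parp10, Parp11 and Parp14), where 0.641% of all genes were called higher. limma on log2(FPKM + 1) called 3, against 0.233% of all genes, and on log2(FPKM + 0.1) it called 1, against 0.0832%. edgeR on the 6 supernatant libraries alone called 2, against 0.283%. The direction was the same in each. By edgeR 0 of the 5 kidney and 0 of the 5 liver markers tested differed between the supernatant groups (0 at an unadjusted p under 0.05, and 0 by DESeq2 or limma). This does not show that the groups were alike in them. The log2 differences of the liver markers were -1.88 to -1.55, with SE of 1.3 to 2. Their sums in the M-MDSC libraries, 0.0766 to 56.4 FPKM, all lay below the 61.5 to 66.8 FPKM of the G-MDSC libraries. The spread within the M-MDSC group, given above, left the test unable to decide. The part of these markers in the members' differences was not tested.

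Compared with untreated MSCs, the members ended above the starting level with either supernatant. With M-MDSC supernatant 9 of 9 members were higher than control at an adjusted p under 0.05, against 16.4% of all genes, and with G-MDSC supernatant 9 of 9 were higher, also against 16.4%. By the call rule of the study 7 of 9 were higher in the M-MDSC group, against 3.45% of all genes, and 6 of 9 in the G-MDSC group, against 3.32%. These counts include Parp14, which reached 1 FPKM in supernatant libraries alone, so it could only be higher than control. The log2 fold changes against control ran from 0.73 for Parp11 to 2.09 for Slfn2 in the M-MDSC group, and from 0.41 for Parp11 to 1.72 for Parp9 in the G-MDSC group. Parp12 was 3.64-fold its control level with M-MDSC and 2.66-fold with G-MDSC supernatant. For 8 of the 9 members the mean levels were ordered TGF-β1, control, G-MDSC supernatant and M-MDSC supernatant from low to high. For Parp11 the order of control and TGF-β1 was exchanged, and these neighbours overlapped, as did control and TGF-β1 for Slfn9. All neighbours further up the order were separate in range, although M-MDSC and G-MDSC supernatant differed at an adjusted p under 0.05 for Parp12 alone.

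Other genes of these families were examined next. Of 11 other PARP genes, all of which passed the filter, 2 rose with M-MDSC supernatant, where 2.83% of all genes rose. These were Zc3hav1, the antiviral zinc finger protein also called PARP13 (log2 fold change 1.09, SE 0.071, adjusted p = 3.04e-06), and Tiparp, a target of the aryl hydrocarbon receptor (0.53, SE 0.076, adjusted p = 0.0021). The same 2 genes passed with G-MDSC supernatant, at 0.93 and 0.67. The median of the 11 was 0.06 with M-MDSC and 0.01 with G-MDSC supernatant, and with TGF-β1 alone 3 rose and 4 fell, where 16.1% of all genes rose and 17.9% fell. Of 6 genes for enzymes that remove ADP-ribose, 5 passed the filter and 0 passed the test with either supernatant, with log2 fold changes between 0.00 and 0.29. By edgeR 0 of the 5 had an unadjusted p under 0.05, and DESeq2 and limma also called 0. Of 4 other Deltex genes 3 were tested and 0 passed with either supernatant by edgeR, DESeq2 or limma. At an unadjusted p under 0.05 edgeR gave 0 of the 3 with M-MDSC and 1 with G-MDSC supernatant. Of 6 other Schlafen genes 0 passed the filter, and the highest was Slfn10-ps, with means of 0.333 FPKM under TGF-β1, 0.887 in the M-MDSC and 0.778 in the G-MDSC supernatant group.

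Genes of interferon signaling were described from the ligand to the target. Of 9 interferon genes 0 passed the filter. Of these 7, Ifnb1 and Ifng among them, had 0 counts in all 12 libraries, and Ifne was the highest, with at most 8 counts. Of 7 receptor and kinase genes, all tested, edgeR called 0 with either supernatant, with 1 at an unadjusted p under 0.05 in each comparison. DESeq2 and limma called 0 with M-MDSC and 1 with G-MDSC supernatant. The most highly expressed, Jak1, was at 20.7 ± 0.517 FPKM with TGF-β1 and 21.9 ± 0.318 FPKM with M-MDSC supernatant (mean ± SD, n = 3). Of 4 genes for transcription factors of this signaling, all tested, 3 rose with M-MDSC supernatant, where 2.83% of all genes rose. They were Irf7 (log2 fold change 4.53), Irf9 (2.56) and Stat2 (2.39). With TGF-β1 alone 4 of these 4 factor genes fell, where 17.9% of all genes fell. Of the inhibitor genes 2 of 3 were tested and both rose with M-MDSC supernatant, Usp18 by 6.04 and Socs3 by 0.31 on the log2 scale.

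Of 30 other interferon-induced genes 27 were tested. With M-MDSC supernatant 26 of 27 rose, against 2.83% of all genes, with a median log2 fold change of 4.01. With TGF-β1 alone 26 of 27 fell, against 17.9% of all genes, with a median of -2.07. Of the 27, 14 reached 1 FPKM in no TGF-β1 library, so their folds rest on low levels. The largest fitted rises were those of the GTPase genes Iigp1 (6.73, SE 0.53), Mx2 (6.60, SE 0.47) and Gbp3 (5.31) and of Ifi44 (5.93). Iigp1 averaged 0.014 FPKM with TGF-β1 and 1.6 in the M-MDSC group, and Mx2 0.0727 and 7.47. Each of these 2, and Psmb8, reached 1 FPKM in 1 control library and otherwise in supernatant libraries alone. Gbp7 reached it in supernatant libraries alone. So these genes passed the filter through the groups in which they were high, and could only rise with M-MDSC supernatant. The counts and medians of this list against TGF-β1 alone include them. With G-MDSC supernatant 26 rose (median 3.30), against 3.10% of all genes. Between the supernatants 7 were higher in M-MDSC than in G-MDSC libraries at an adjusted p under 0.05 by edgeR, against 0.0999% of all genes (19 changed by DESeq2 and 15 by limma). The members' median rise of 2.71 with M-MDSC supernatant and fall of -0.63 with TGF-β1 were smaller in size than the medians of this list. The lists were chosen with earlier results of these data known, and the difference between them was not tested.

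**Figure D4:**
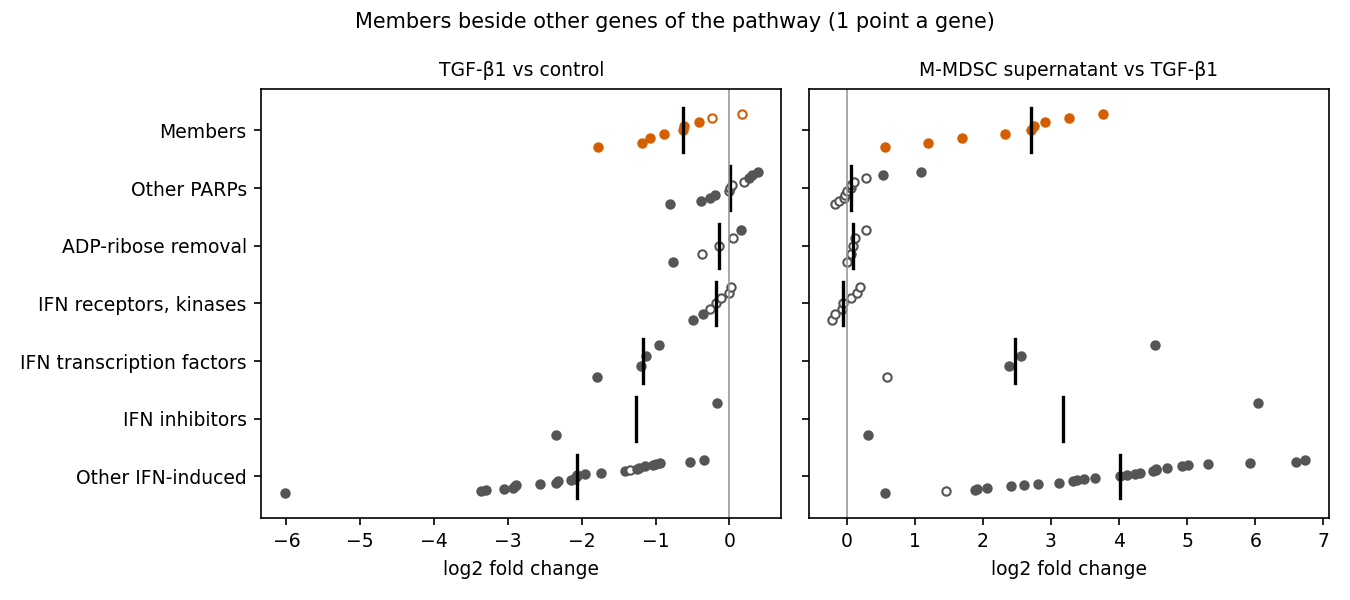
Log2 fold change of each tested gene (1 point a gene, filled where the adjusted p is under 0.05) for TGF-β1 against control (left) and for M-MDSC supernatant with TGF-β1 against TGF-β1 alone (right), by gene list, with a black line at each median. The members (orange) have medians of -0.63 and 2.71, and the receptors and kinases stay between -0.21 and 0.19 in the right panel.

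Genes whose pattern was like that of the members were found by Pearson correlation, over the 12 libraries, of log2(FPKM + 1) with the mean standardized level of the 9 members. Among the most alike were Irgm1 (r = 0.997), Ifih1 (0.996), Gm20559 (0.995) and Samd9l (0.995). The libraries fall into 4 treatment groups, so these values mostly describe the group means. Irgm1, an immunity-related GTPase gene, was at 13.8 ± 0.149 FPKM with TGF-β1, 51.6 ± 1.96 in the M-MDSC group and 39.2 ± 0.991 in the G-MDSC group (mean ± SD, n = 3). Among the members the correlation with their own mean was 0.994 for Parp12 and Slfn2, 0.973 for Slfn9 and 0.892 for Parp11, which stood furthest from the others.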

How the data were processed

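Poly(A) RNA of 12 MSC libraries (4 groups of 3) was sequenced as dUTP-stranded 150-base pairs. The deposited counts per gene and the FPKM values were made by the authors by alignment to GRCm38 with HISAT2 and assembly with StringTie (submitters' notes name cutadapt 1.9, HISAT2 2.0.4 and StringTie 1.3.4d). The counting tool and strand setting are not given in the sources used here. A gene with 0 counts is listed at 0.0001 FPKM or less, and 44.3% of nonzero counts up to 12 were 4, 8 or 12. Depth was 73977669 to 84565450 counts.

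Genes with at least 1 FPKM in at least 3 libraries (12016) were fitted in all 12 libraries with edgeR 4.0.16 (TMM scaling, quasi-likelihood, two-sided, Benjamini-Hochberg over all genes, threshold 0.05), and the code was tested on simulated data. Alternatives were DESeq2 1.42.0, limma 3.58.1 on log2(FPKM + 1) or log2(FPKM + 0.1), other filters, scaling, counts divided by 4, a replicate block and leaving out each library. Levels are FPKM, and fold changes and 95% intervals come from the counts. Members and gene lists were chosen with earlier results of these data known. All members were named, and from each list up to 4 genes with the largest change with M-MDSC supernatant among those that passed, or the most highly expressed. Outside this rule, Cd44, Itgb1, Vim, Eng, Mpo, Elane, Ly6g, Ly6c2, S100a8, S100a9, Itgam, Camp, Aqp1, Ifnb1, Ifng, Gbp7, Psmb8 and Parp1 were named after their values were seen. Pearson likeness was computed for genes outside the members. A gene of these lists is not reported here. Gene coordinates are those of the table, and 94.2% of its IDs found in GENCODE vM21 had the same start and end there. Sequences are from RefSeq (GRCm38.p6).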

Additional observations from a re-analysis of the deposited data

Results flagged for a closer look

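Parp12 differed between the effects of the supernatants. Relative to TGF-β1 alone its log2 fold change was 2.75 with M-MDSC and 2.30 with G-MDSC supernatant, and the test of the difference in the edgeR fit gave 0.45 (SE 0.044, adjusted p = 0.00257). It was higher in 3 of 3 M-MDSC libraries than in each of the 3 G-MDSC libraries.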

How the results depend on the processing

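No call reversed direction. Over 4 comparisons and 576 single-member alternatives, 563 kept their direction and side of the threshold, 2 lost the call (Dtx3l, TGF-β1 against control, once with its fold change kept) and 11 gained one. The number of members that passed stayed at 9 for M-MDSC supernatant against TGF-β1 under every alternative except the call rule of the study, which gave 8, and at 8 for G-MDSC supernatant except by DESeq2, which gave 9. For M-MDSC against G-MDSC supernatant it was 1 by edgeR, 4 by DESeq2, 3 by limma on log2(FPKM + 1), 2 with the 6 supernatant libraries alone and 0 by the call rule of the study. For TGF-β1 against control it was 7, 8 by limma with either pseudocount, 6 with the 6 libraries compared alone, and 3 by the call rule of the study, whose fold threshold removes smaller changes. Without 1 library at a time the counts were 9 to 9 (M-MDSC against TGF-β1), 8 to 8 (G-MDSC against TGF-β1), 1 to 1 (M-MDSC against G-MDSC), 6 to 8 (TGF-β1 against control), 9 to 9 and 9 to 9 (each supernatant against control). Replicate numbers did not pair the samples: same-numbered libraries of different groups had a mean correlation of deviations of -0.000238 over 18 pairs (-0.105 to 0.0743). With the replicate block the counts were 9, 8, 1, 7, 9 and 9 in the same order, so the block changed no count. Slfn5, at 0 to 25 counts, lies at the limit of detection.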
